A study of Mus musculus with 3 samples.

Results

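Krüppel-like factors (KLFs) are zinc-finger transcription factors, and Nos3 encodes endothelial nitric oxide synthase, the enzyme that makes nitric oxide in the vessel wall. The genes followed here were Klf2, Klf3, Klf4, Klf6, Klf7, Klf9, Klf10 and Nos3, chosen by symbol, which are 8 of the 31053 genes in the deposited count tables. All 8 had UMIs in the sinusoidal endothelial, arterial endothelial and LepR stromal cells of mouse bone marrow, and their levels were compared among these 3 classes and among 3 single-cell libraries.

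The study profiled endothelial cells (ECs) and LepR+ cells, the leptin receptor-positive perivascular stroma, from tibial bone marrow of the C57Bl/6JCrl strain by droplet single-cell RNA sequencing. The 3 libraries were WT, FLOX (genotype Vegfc flox/flox) and VC (genotype Cdh5CreERT2;Vegfc flox/flox), and mice of all 3 were given tamoxifen by gavage. In VC, the tamoxifen-inducible Cre is driven by the promoter of Cdh5 (VE-cadherin), so recombination of the floxed Vegfc alleles is directed to ECs and not to stroma. FLOX mice carried the floxed alleles without the Cre, and WT mice carried neither. Each genotype was 1 library, and the number of mice behind each was not given in the sources used here. No genotype difference below has a replicate check, and genotype cannot be told apart from preparation.

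KLF2 and KLF4 are induced in ECs by laminar blood flow through a MEKK3, ERK5 and MEF2 kinase and transcription factor cascade, which is held in check by the cerebral cavernous malformation (CCM) complex. Both factors are known to raise Nos3, Thbd (thrombomodulin) and other genes of a quiescent, anticoagulant endothelium and to restrain leukocyte adhesion molecules and Edn1 (endothelin-1). Several KLF genes, Klf2, Klf4, Klf6 and Klf10 among them, also respond quickly to stimuli such as serum, stress or growth factors, and Klf9 is a target of glucocorticoid and thyroid hormone receptors.

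In the mouse genome GRCm38, Klf2 lies on chromosome 8 from 72319033 to 72321656 on the plus strand, and Klf4 on chromosome 4 from 55527143 to 55532466 on the minus strand. Nos3 lies on chromosome 5 from 24364810 to 24384474 on the plus strand and is overlapped on the other strand by Atg9b. Klf3 (chromosome 5, 64803388 to 64832901) and Klf7 (chromosome 1, 64029447 to 64122282) are also overlapped by transcripts of the other strand, and whether the counting used strand was not given in the sources used here. Klf6 is on chromosome 13 (5861482 to 5870394), Klf9 on chromosome 19 (23141226 to 23168134) and Klf10 on chromosome 15 (38291463 to 38300706). RefSeq promoter windows of 300 bases (GRCm38.p6, 250 before and 50 after the start site) were matched for 6 members, namely Klf2, Klf3, Klf4, Klf6, Klf7 and Klf9. The first 200 bases of the Klf2 and Klf4 windows are shown because these are the members that share the flow-responsive pathway and that differed most between libraries in arterial cells. They cover chr8:72318812-72319011 on the plus strand for Klf2 and chr4:55532526-55532725 on the minus strand for Klf4. Capitals mark matches, on either strand, to the GC box GGGCGGGG and to the core letters of a MEF2 site, CTA and TAG with any 4 bases between them.
Klf2 promoter: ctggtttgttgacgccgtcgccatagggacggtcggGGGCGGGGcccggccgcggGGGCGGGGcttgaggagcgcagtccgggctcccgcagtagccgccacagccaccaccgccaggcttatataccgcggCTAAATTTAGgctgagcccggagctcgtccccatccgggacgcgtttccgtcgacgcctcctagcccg
Klf4 promoter: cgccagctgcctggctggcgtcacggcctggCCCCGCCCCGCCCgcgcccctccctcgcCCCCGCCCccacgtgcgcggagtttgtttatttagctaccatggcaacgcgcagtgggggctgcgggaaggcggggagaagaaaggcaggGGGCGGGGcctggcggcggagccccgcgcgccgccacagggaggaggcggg
The Klf2 window held 1 match to the MEF2 core, spelled CTAAATTTAG and starting 118 bases before the start site, and 2 matches to GGGCGGGG. The MEF2 core was found in 3.69% of 32851 promoter windows of the same length, and the exact spelling CTAAATTTAG in 13 of them, 0.0396%. That spelling was taken from the Klf2 window, which is itself among the 13. Its share is therefore no measure of how unusual the Klf2 window is. None of the 5 other windows matched the MEF2 core. The Klf4 and Klf3 windows held 4 matches to GGGCGGGG each, some of them overlapping in Klf4, and those of Klf6, Klf7 and Klf9 held 0, while 17.6% of all windows held at least 1. These letters are described only, and no binding was measured.

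Of 15624 barcodes, 12790 had at least 500 genes and at most 10% mitochondrial UMIs, and 10008 of these fell into the 3 classes. WT held 56853574 UMIs, FLOX 61758462 and VC 37361779, and each pair of libraries shared 5 to 10 cell barcodes. Sinusoidal cells (Stab2 at 2 or more UMIs) numbered 2992 in WT, 3200 in FLOX and 1643 in VC, arterial cells (2 or more of Sox17, Sema3g, Fbln2 and Gja4, Stab2 at most 1) 58, 189 and 89, and LepR stromal cells (Cxcl12 at 50 or more) 264, 1107 and 466. Levels are given as CPM, the UMIs of a gene scaled to 1e+06 UMIs of its class and library, and all intervals are exact 95% intervals that cover counting error only. B-lineage cells of the same libraries (Mzb1 at 5 or more UMIs, no Cdh5), 93 in WT, 256 in FLOX and 94 in VC, served as reference cells for free RNA, with the reservation that lymphoid cells are known to express Klf2 and Klf6 themselves. They were unlike cells in the 3 libraries: the plasma cell gene Jchain was found in 17.2% of those of WT against 94.5% and 87.2%, and the earlier B-lineage gene Ebf1 in 86.0% against 18.4% and 28.7%, so each reference is read only within its library. Vegfc, the floxed gene, read 246, 201 and 145 CPM in the stromal cells of WT, FLOX and VC. In sinusoidal cells it read 1.56, 0.56 and 0.28 CPM. Vegfc UMIs in arterial cells numbered 2 for WT, 9 for FLOX and 0 for VC, where a floor of 3 UMIs is 3.05 CPM, and 3′ tags may lie outside the deleted part, so these values do not check the deletion.

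The class labels were compared with markers that the rules had not used. Sinusoidal cells carried Stab1 at 590 to 763 CPM and Flt4 at 671 to 805 CPM, and Lyve1 was near 0 in them (0.13 to 0.20 CPM). Arterial cells carried Efnb2 at 377 to 456 CPM in all 3 libraries. Dll4 read 64.7, 119 and 126 CPM in arterial cells of WT, FLOX and VC against 58.3, 65.4 and 55.9 CPM in sinusoidal cells. It thus hardly separated the classes in WT. Arterial cells also held sinusoidal markers. Mrc1 read 253, 108 and 96.7 CPM there and Flt4 210, 130 and 120 CPM. Stab1 (210, 155 and 177 CPM) and Gpm6a (120, 79.2 and 84.5 CPM) were likewise highest in WT. Vcam1 was lowest in WT, at 143, 266 and 400 CPM. The WT arterial class stood apart from the other two: it held 0 UMIs of Gja5 and of Bmx, where FLOX had 49.9 and 34.9 CPM and VC 43.8 and 25.5 CPM. Hey1 read 5.63 CPM in WT against 66.7 and 64.1 CPM, and the 8 arterial markers summed to 1663 CPM there, against 2786 for FLOX and 3395 for VC. Most of that sum was Ly6a (Sca-1), an arterial marker that also responds to interferon, at 1128, 1985 and 2676 CPM; the other 7 summed to 535, 801 and 719 CPM. With 58 cells from WT, member and list calls on arterial cells are also given without that library. The arterial sums of FLOX and VC carried 25611 and 25783 CPM of 6 neutrophil markers, against 332 in WT; after cells with 3 or more leukocyte or erythroid UMIs were left out (53, 178 and 84 cells remaining), these were 189 and 432 CPM against 267.

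Across classes, arterial cells had the highest levels of most members. Arterial cells exceeded sinusoidal cells in 6 of the 8 members (Klf2, Nos3, Klf9, Klf4, Klf7 and Klf6), and none was lower, by edgeR's quasi-likelihood test on 9 class sums with library as a block. The block removes library differences common to all classes, so the p-values measure how far class differences vary over these 3 libraries. That spread has 4 residual degrees of freedom and is estimated with help from the other genes. Among all 13136 genes tested, 10.4% were called higher and 15.1% lower in arterial cells at an adjusted p under 0.05, and the median log2 fold change was -0.10, against 0.80 for the 8 members. Without the WT library the same 6 members were called higher: Klf2 at a log2 fold change of 2.85, Nos3 at 1.67, Klf4 at 1.37, Klf9 at 1.249, Klf6 at 0.63 and Klf7 at 0.50, with edgeR adjusted p from 1.18e-05 (Klf2) to 0.00515 (Klf7). DESeq2 on the same sums called 1562 genes higher and 1369 lower, where edgeR called 1362 and 1989. Stromal cells were lower than sinusoidal cells in 4 members (Nos3, Klf4, Klf7 and Klf3), against 30.7% of all genes, and higher in 1 (Klf9), against 30.7%. They were lower than arterial cells in 5 members (Nos3, Klf4, Klf2, Klf7 and Klf3), against 22.1% of all genes, and higher in Klf9 alone, against 27.3%. Without WT these 6 calls against arterial cells held, and Klf6 was also called lower in stroma (log2 fold change -0.34; edgeR adjusted p = 0.0436).

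**Figure D1:**
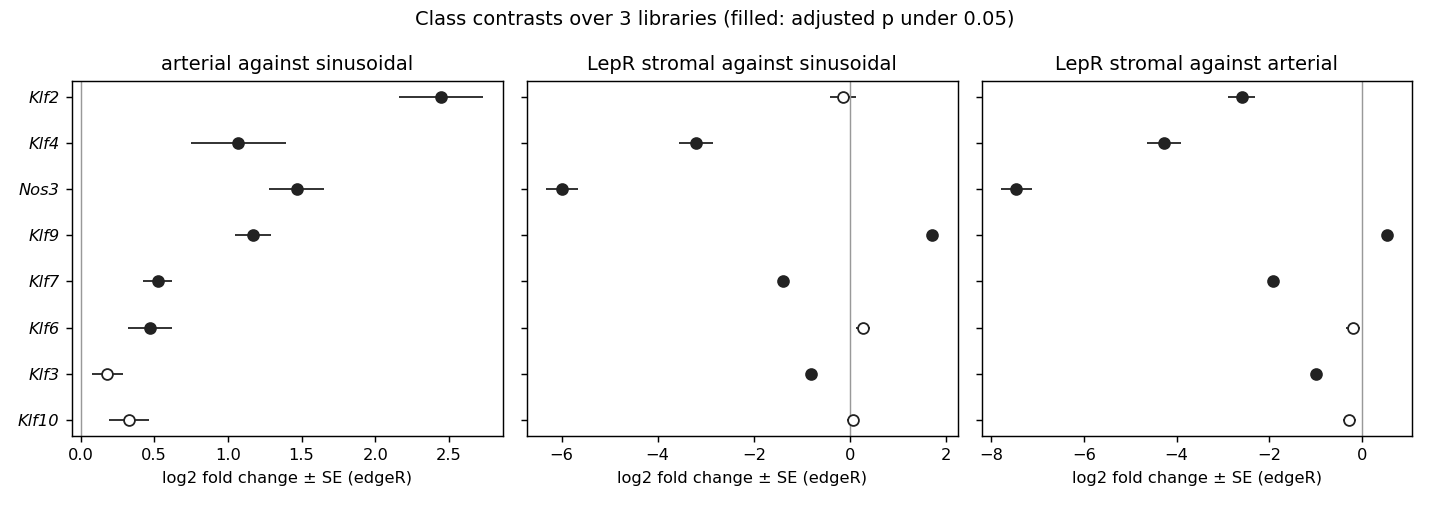
Log2 fold changes between classes (x axis, edgeR estimate with its SE, over 3 libraries) for the 8 members (y axis), with filled points for adjusted p under 0.05. Klf2 lies farthest to the right for arterial against sinusoidal cells at 2.45, Nos3 farthest to the left for both stromal contrasts, and Klf9 is the member that is called higher in stroma.

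Klf2 marked arterial cells in every library. It read 663 CPM (interval 604 to 725) in WT arterial cells, 1622 (1560 to 1685) in FLOX and 2392 (2297 to 2491) in VC. In sinusoidal cells it read 226, 191 and 296 CPM, so that the lowest arterial value lay above the highest sinusoidal value. The arterial level was 2.93 times the sinusoidal level in WT, 8.49 times in FLOX and 8.09 times in VC. The log2 fold change over the 3 libraries was 2.45 (SE 0.29; edgeR adjusted p = 0.000118), and it lay between 2.17 and 2.85 in all 11 alternative settings, those without the WT library and without leukocyte-bearing cells included. Stromal cells carried 172, 257 and 224 CPM of Klf2, values that overlapped the sinusoidal ones and lay above them in FLOX only. The stromal and sinusoidal classes did not differ beyond the spread over libraries (log2 fold change -0.15, SE 0.27; edgeR adjusted p = 0.663). In the reference cells Klf2 read 134, 37.3 and 58.2 CPM.

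Klf4, the close relative of Klf2, was an endothelial gene in these data. Its arterial level was 491 CPM (441 to 545) in WT, 792 (749 to 837) in FLOX and 1221 (1153 to 1292) in VC, against sinusoidal levels of 422, 295 and 375 CPM. All 3 arterial values lay above all 3 sinusoidal ones, but in WT only by 1.16-fold (1.04 to 1.29), against 2.69-fold in FLOX and 3.26-fold in VC. The log2 fold change was 1.07 (SE 0.32; edgeR adjusted p = 0.0327), a call that was lost when FLOX was left out (edgeR adjusted p = 0.167) or VC was left out (0.234), without the library block (0.0826) and under stricter class rules (0.0845). Stromal cells read 65.4, 22.9 and 39.0 CPM, a log2 fold change of -3.20 against sinusoidal cells (SE 0.35; edgeR adjusted p = 1.39e-05). The reference cells read 40.4, 15.2 and 17.1 CPM in the same libraries, and after thinning to 2000 UMIs a cell, 8.02%, 4.07% and 5.83% of stromal cells held a Klf4 UMI against 6.45%, 3.13% and 3.19% of reference cells, shares whose intervals overlapped in each library. Unthinned, the shares were 19.7%, 14.3% and 19.7% of stromal cells and 31.2%, 15.6% and 17.0% of reference cells, at median depths of 10654, 11315 and 13581.5 against 11163, 19555 and 26601 UMIs. The CPM intervals of the classes did not overlap in any library (56.6 to 75.3 against 31.2 to 51.4 in WT).

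Nos3 had the fewest UMIs of the members and the sharpest split between endothelium and stroma. Arterial cells held 30, 156 and 69 Nos3 UMIs (WT, FLOX, VC), which is 42.2 CPM (28.5 to 60.2), 97.2 (82.6 to 114) and 70.2 (54.7 to 88.9). Sinusoidal cells read 22.7, 24.7 and 21.6 CPM, below all 3 arterial values and within 1.14-fold of each other. The arterial excess was 1.86-fold (1.248 to 2.67) in WT, 3.93-fold in FLOX and 3.25-fold in VC, with a log2 fold change of 1.47 (SE 0.19; edgeR adjusted p = 0.000209) that stayed between 1.26 and 1.70 and past the threshold in 11 of 11 alternative settings. Stromal cells held 1, 4 and 4 Nos3 UMIs, or 0.34, 0.30 and 0.57 CPM. The stromal level was 0.0148 (0.00037 to 0.083), 0.0121 (0.0033 to 0.031) and 0.0265 (0.0072 to 0.068) times the sinusoidal one. The reference cells held 2, 3 and 0 Nos3 UMIs, and the few stromal UMIs are read as background.

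Klf9 ran opposite to Klf4 and Nos3 in that stroma, not artery, was its highest class. Sinusoidal cells read 94.0, 97.0 and 93.0 CPM (WT, FLOX, VC), arterial cells 193, 261 and 257 CPM, and stromal cells 265, 371 and 313 CPM. The point values of the 3 classes did not overlap: every stromal value was above every arterial value and every arterial value above every sinusoidal one. The lowest stromal value (265 CPM in WT) and the highest arterial one (261 CPM in FLOX) were close, however. Arterial against sinusoidal cells gave a log2 fold change of 1.17 (SE 0.12; edgeR adjusted p = 5.17e-05), and stromal against sinusoidal cells 1.71 (SE 0.12; edgeR adjusted p = 2.49e-07). Stromal against arterial cells gave 0.55 (SE 0.12; edgeR adjusted p = 0.00328), and this call was lost without the FLOX library (edgeR adjusted p = 0.0657). The reference cells read 5.51, 2.23 and 2.85 CPM. Among glucocorticoid and clock genes, 5 of 8 were higher and 2 lower in stromal than in sinusoidal cells. Of all genes tested, 30.7% were called higher and 30.7% lower in that contrast. Tsc22d3 (GILZ, a glucocorticoid-induced gene) was among the 5, at 161, 289 and 236 CPM in stroma against 19.4, 34.6 and 31.7 CPM in sinusoids. The 2 lower were the glucocorticoid-induced genes Fkbp5, at 71.8, 76.1 and 74.8 CPM against 99.5, 118 and 127, and Sgk1, at 67.4, 92.6 and 75.8 CPM against 198, 155 and 185.

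Klf3 and Klf7, for which roles in ECs are less established, were broadly expressed. Klf7 read 286, 210.0 and 211 CPM in sinusoidal cells of WT, FLOX and VC, 437, 338 and 344 CPM in arterial cells and 107, 79.1 and 84.1 CPM in stroma, with no overlap between classes. Its arterial excess over sinusoidal cells was 1.53-fold, 1.61-fold and 1.63-fold, the most even of the members called (log2 fold change 0.52, SE 0.10; edgeR adjusted p = 0.00276), though with only the 2 libraries left after FLOX or VC was dropped it did not pass (edgeR adjusted p = 0.056 and 0.0607). In each class WT had the highest Klf7 level and FLOX and VC lay within 1.06-fold of each other. Klf3 read 273, 281 and 272 CPM in sinusoidal cells and 354, 361 and 323 CPM in arterial cells. All 3 arterial values were above the sinusoidal ones, but the difference did not pass the test (log2 fold change 0.18, SE 0.11; edgeR adjusted p = 0.251), except under stricter class rules (edgeR adjusted p = 0.0474) and without leukocyte-bearing cells (0.0313). Stromal Klf3, at 169, 164 and 143 CPM, was below both endothelial classes (log2 fold change -0.81 against sinusoidal cells, edgeR adjusted p = 4.72e-05).

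Klf6 and Klf10, which are known as injury- and TGF-beta-responsive genes, were not called in either stromal contrast. Klf6 read 234, 249 and 346 CPM in sinusoidal cells, 257, 464 and 579 CPM in arterial cells and 269, 355 and 385 CPM in stroma, and these ranges overlapped. In WT the arterial and sinusoidal levels differed by no more than counting error (1.10-fold, 0.95 to 1.27), against 1.87-fold in FLOX and 1.68-fold in VC. The call for arterial against sinusoidal cells (log2 fold change 0.47, SE 0.15; edgeR adjusted p = 0.0432) was lost without FLOX (edgeR adjusted p = 0.326), without VC (0.264), without the library block (0.279) and under stricter class rules (0.0729). Klf10 read 51.2, 38.8 and 29.6 CPM in sinusoidal cells, 74.6, 45.5 and 48.9 CPM in arterial cells and 48.0, 41.2 and 33.7 CPM in stroma. No class contrast of Klf10 passed the test (edgeR adjusted p = 0.109, 0.715 and 0.13); the arterial excess over sinusoidal cells passed without leukocyte-bearing cells (edgeR adjusted p = 0.0351) and without the 5% of cells with most UMIs (0.0436).

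**Figure D2:**
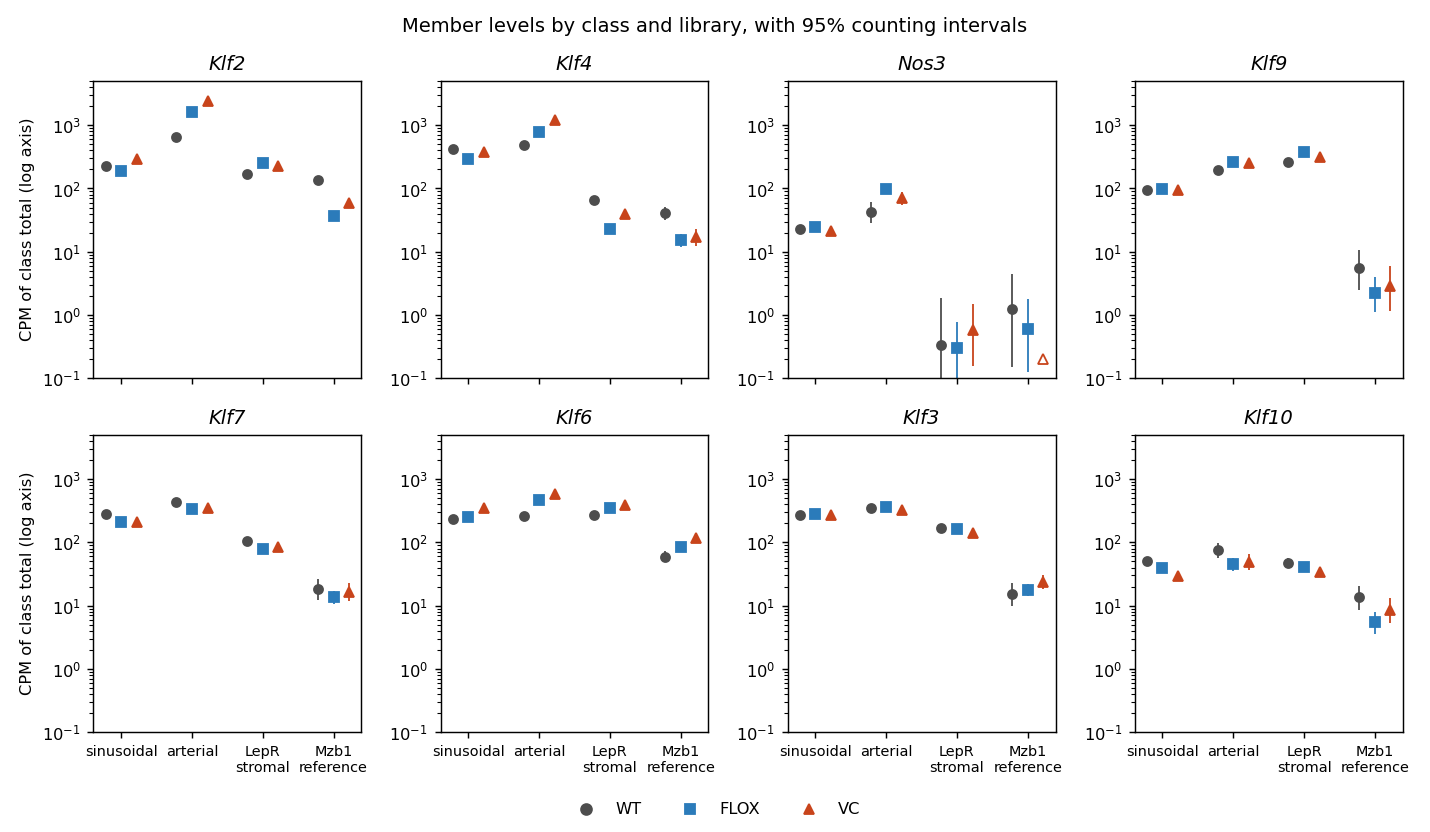
CPM of the class total (log axis) for each member in sinusoidal, arterial, LepR stromal and Mzb1-bearing reference cells, 1 point per library with its 95% counting interval; an open point at the bottom stands for 0 UMIs. Klf2 rises from 191 to 296 CPM in sinusoidal to 663 to 2392 CPM in arterial cells, and stromal Nos3 sits at 0.30 to 0.57 CPM beside the reference cells.

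Klf2 rose with the number of arterial genes detected per cell. Among ECs with at most 1 Stab2 UMI, cells with 0, 1, 2, and 3 or 4 of the 4 arterial rule genes had Klf2 at 235, 348, 616 and 701 CPM in WT. The series was 159, 804, 869.7 and 1867 CPM in FLOX and 110.5, 662, 1210.4 and 2769 CPM in VC. These bins held 124, 22, 30 and 28 cells in WT, 142, 50, 57 and 132 in FLOX, and 80, 28, 23 and 66 in VC, and median depth rose across them (3037 to 13126.5 UMIs in WT); the part of depth in this order was not tested. Within the bin of 3 or 4 genes, WT was below FLOX and VC. Detection of these genes depends on depth, so this bin does not match the libraries on arterial content. Klf4 followed the same order in WT (109, 224, 400.2 and 565 CPM) and VC (80.1, 263, 405 and 1480.2 CPM), with the 2 middle bins about equal in FLOX (114, 320.0, 307 and 950.5 CPM). Nos3 in the bin of 3 or 4 genes was 46.0, 108 and 84.5 CPM in WT, FLOX and VC, against 2.72, 4.197 and 1.60 CPM in the bin of 0. Klf9 was already at its arterial level with 1 gene detected (224, 270.2 and 278 CPM) and did not increase further (202, 271 and 267 CPM with 3 or 4). The gradient was also present in Stab2-bearing sinusoidal cells: from 0 to 3 or 4 arterial genes, Klf2 went from 192 to 395 CPM in WT, from 160.2 to 672 in FLOX and from 260.0 to 792 in VC. Nos3 went from 21.4 to 43.8, from 24.1 to 47.7 and from 18.2 to 59.6 CPM, whereas Klf4 stayed between 275 and 463 CPM in all of these sinusoidal bins. No doublet caller was run, and the part of depth and of doublets in the sinusoidal bins was not tested. Cells with at most 1 Stab2 UMI and 0 arterial genes were called ECs only by Cdh5 at 1 or more and Cxcl12 under 50 UMIs. Their Nos3 and Klf4 lay below those of Stab2-bearing cells with 0 arterial genes (Nos3 at 21.4, 24.1 and 18.2 CPM). Whether that bin held cells other than ECs was not tested, so the step from 0 to 1 gene cannot be read as arterial grade alone.

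**Figure D3:**
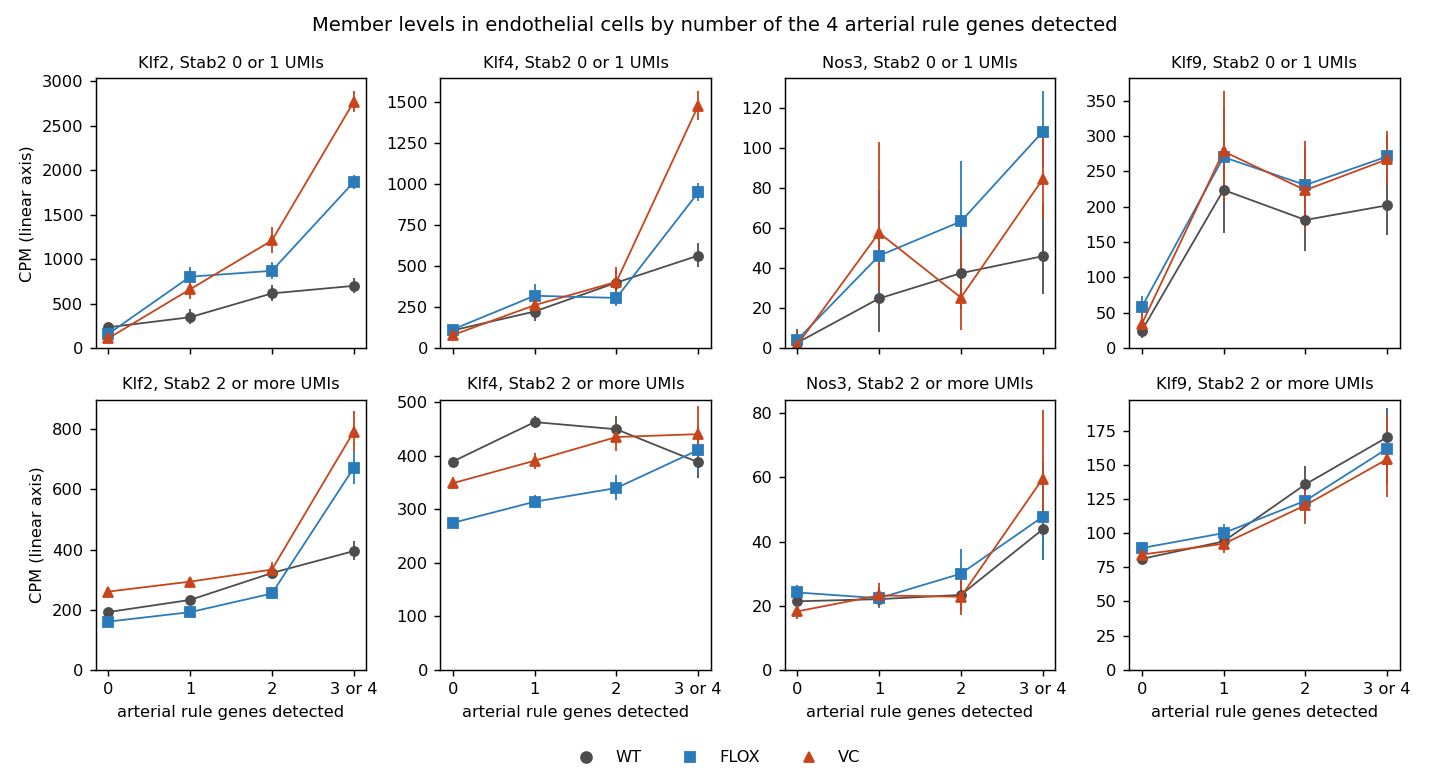
CPM (linear axis, 95% counting intervals) of Klf2, Klf4, Nos3 and Klf9 in ECs with 0 or 1 Stab2 UMIs (top) and 2 or more (bottom), by how many of the 4 arterial rule genes were detected, 1 line per library. In the top row Klf2 in VC climbs from 110.5 to 2769 CPM, and Klf9 steps up once, between 0 and 1 gene.

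In sinusoidal cells Klf2 and Klf4 had the highest cell-to-cell variation of the members in each library. With each cell thinned to 2000 UMIs, the Fano factor (variance over mean, 1 for pure counting noise) of Klf2 in sinusoidal cells was 2.45, 1.89 and 2.13 (WT, FLOX, VC), and that of Klf4 2.99, 1.86 and 1.90. Klf6 followed at 2.00, 1.57 and 1.66. Klf3, which had a similar mean (0.53 to 0.58 UMIs a cell against 0.34 to 0.59 for Klf2), was at 1.11, 1.13 and 1.10, near counting noise. The tenth of sinusoidal cells with the most Klf2 held 65.4%, 63.2% and 53.8% of its UMIs, against 43.0%, 41.0% and 42.5% for Klf3. In arterial cells the Klf2 Fano factor was 2.34, 3.17 and 4.53, and the whole distribution differed between libraries: 39.7% of WT, 19.1% of FLOX and 13.6% of VC arterial cells held 0 Klf2 UMIs per 2000, and 5.17%, 32.4% and 47.7% held 5 or more. For Klf4 the shares with 5 or more were 1.72%, 8.51% and 20.5%. At least 1 Klf2 UMI was found in 60.3%, 80.9% and 86.4% of thinned arterial cells and in 24.8%, 22.6% and 33.7% of thinned sinusoidal cells, against 24.7%, 7.42% and 14.9% of reference cells; unthinned, the arterial shares were 86.2%, 90.5% and 96.6%, at median depths of 11754, 6376 and 9079 UMIs. Median depths of sinusoidal cells were 11106.5, 7781 and 10745 UMIs. In WT the sinusoidal share lay at that of the reference cells. Since these may express Klf2 themselves, this share cannot separate detection from background.

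**Figure D4:**
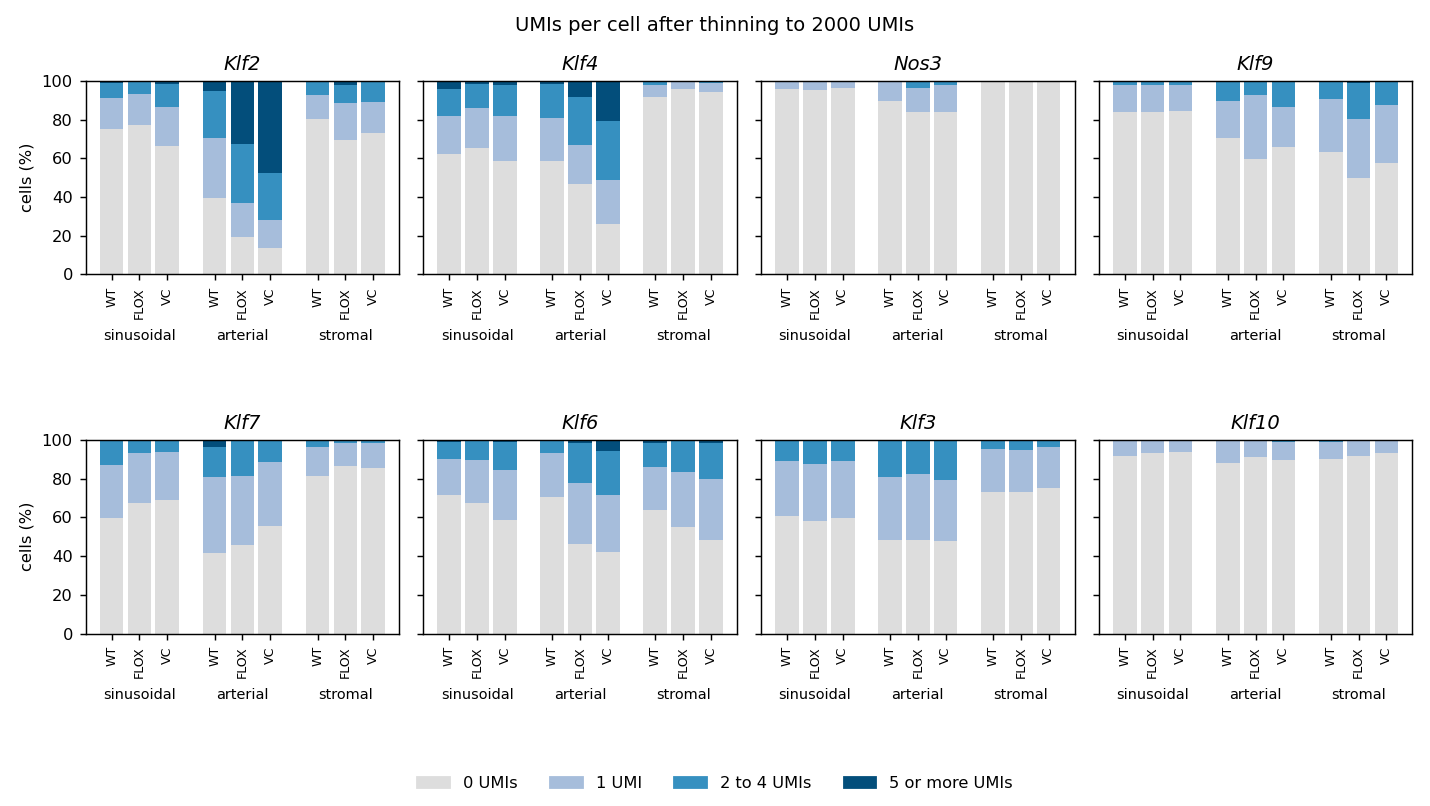
Share of cells (%) with 0, 1, 2 to 4 and 5 or more UMIs of each member after thinning to 2000 UMIs a cell, 1 bar per library within each class. The darkest segment, 5 or more UMIs, reaches 47.7% for Klf2 in VC arterial cells and stays at or below 1.65% for Klf2 in sinusoidal cells.

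Within sinusoidal cells, Klf2 was detected together with Klf4 and with immediate early genes, which are induced within minutes of a stimulus. At 2000 UMIs a cell, Klf4 was found in 55.8% of WT cells with a Klf2 UMI and in 32.0% of those without; the pair was 46.5% and 31.3% in FLOX and 50% and 36.7% in VC. Fos was found in 67.7% against 36.1%, 59.8% against 40.5% and 63.8% against 46.5%. Detection of Klf3 was about the same in cells with and without Klf2 (41.1% and 38.9%, 41.8% and 41.8%, 40.6% and 40.5%), as was that of Pecam1 (69.1% and 69.2%, 65.5% and 67.7%, 65.4% and 64.9%). Nos3 and Thbd, which KLF2 is known to raise, showed differences of -0.22 to 2.40 and -2.06 to 1.34 percentage points between cells with and without Klf2. After thinning, 95.7%, 95.4% and 96.2% of sinusoidal cells (WT, FLOX, VC) held 0 Nos3 UMIs. Differences in points can thus be only small for Nos3, and no absence of a link is read from them. In arterial cells Klf4 was found in 54.3%, 60.5% and 80.3% of cells with a Klf2 UMI and in 21.7%, 22.2% and 33.3% of those without, the latter resting on 23, 36 and 12 cells. Cells of a library share its free RNA and preparation, so these shares are descriptions and carry no p.

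**Figure D5:**
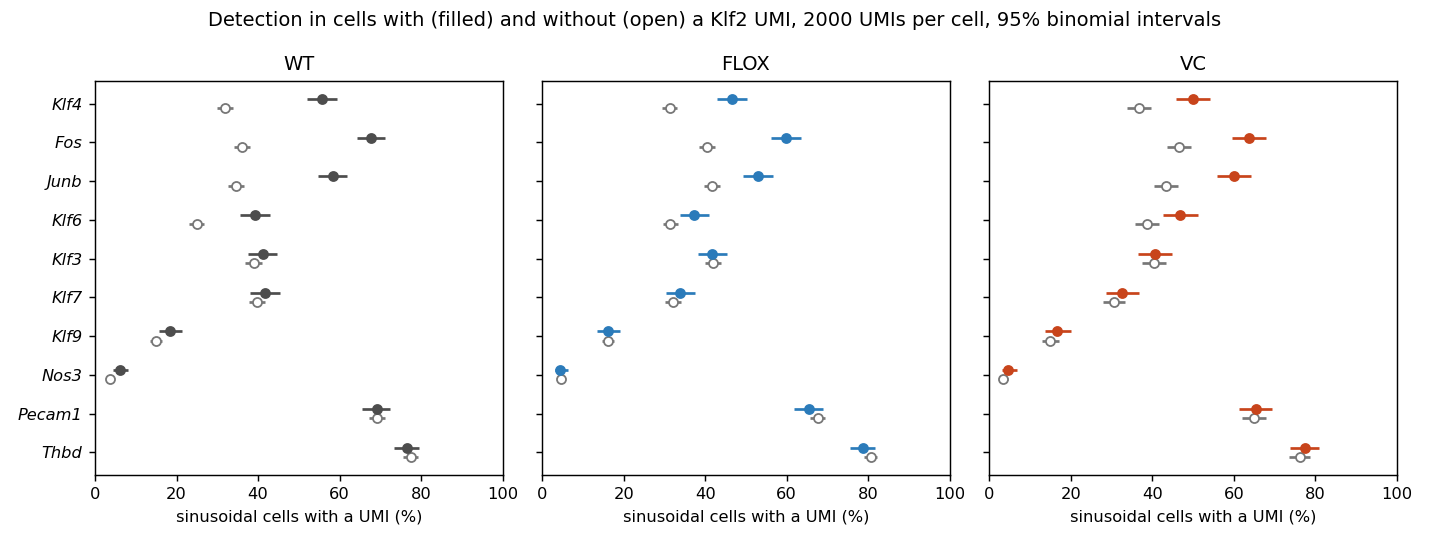
Share of sinusoidal cells (%, x axis, 2000 UMIs a cell, 95% binomial intervals) with a UMI of each gene on the y axis, in cells with (filled) and without (open) a Klf2 UMI, 1 panel per library. Klf4, Fos and Junb separate in all 3 panels, while Klf3, Pecam1 and Thbd lie together.

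The pathway around the members was read from fixed lists. Beside the list counts, 10.4% of all 13136 genes tested were called higher and 15.1% lower in arterial than in sinusoidal cells. Of 14 genes upstream of KLF2 and KLF4, 6 were higher in arterial than in sinusoidal cells (Heg1, Mef2a, Mef2c, Mef2d, Hdac5 and Pecam1) and 1 lower (Piezo1), with a median log2 fold change of 0.20. Without WT these counts were 4 (Mef2a, Hdac5, Pecam1 and Heg1) and 3 (Krit1, Kdr and Piezo1). Heg1, the transmembrane partner of the CCM complex, read 747, 749 and 557 CPM in arterial cells against 211, 196 and 188 CPM (log2 fold change 1.63, SE 0.11; edgeR adjusted p = 2.98e-06). Mef2c, one of the factors that bind the MEF2 motif, read 606, 380.2 and 375 CPM in arterial cells against 385, 273 and 262 CPM in sinusoidal cells, highest in WT in both. Its relation to Klf2 was not tested. Kdr (VEGFR2) did not pass the test (log2 fold change -0.47, SE 0.27; edgeR adjusted p = 0.24). In stroma 8 of these 14 were lower than in sinusoids and 2 higher, against 30.7% of all genes for each direction. Among the 10 other Klf genes, 6 were tested. Klf11, Klf12 and Klf13 were higher in arterial than sinusoidal cells, with Klf12 at 4.22, 29.3 and 29.5 CPM against 1.10, 1.59 and 1.40 CPM, and Klf15 was called lower on 0 arterial UMIs in each library; the same 4 were called without WT. Klf15 was higher in stroma, at 14.1, 12.7 and 16.2 CPM against 1.15, 1.62 and 1.68 CPM in sinusoids.

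Genes known to rise with endothelial KLF2 or KLF4 did not move as 1 group between arterial and sinusoidal cells. Of 12, 6 were higher in arterial cells (Nos3, S1pr1, Cav1, Podxl, Palmd and Slc9a3r2) and 4 lower (Thbd, Aqp1, Tek and Adamts4), with a median log2 fold change of 0.44, and the same 10 were called without WT. Podxl (podocalyxin) read 537, 787 and 751 CPM in arterial against 50.7, 49.4 and 49.9 CPM in sinusoidal cells, and Cav1 (caveolin-1) 315, 391 and 369 CPM against 23.6, 15.5 and 15.3 CPM. Thbd was on the other side, at 326, 347 and 363 CPM in arterial against 892, 889.7 and 920.1 CPM in sinusoidal cells (log2 fold change -1.52, SE 0.20; edgeR adjusted p = 0.000231), and so was the water channel Aqp1, at 338, 206 and 120.1 CPM against 702, 759 and 712 CPM. Of the 8 tested genes known to be restrained by KLF2 or KLF4, 5 were lower in arterial cells (Vcam1, Sele, Selp, Icam1 and Angpt2), and Edn1 was higher, as they also were without WT. The adhesion molecule E-selectin (Sele) read 52.0, 13.1 and 44.8 CPM in arterial against 763, 911 and 799.8 CPM in sinusoidal cells. Edn1 read 2.81, 61.1 and 84.5 CPM in arterial cells, of which the WT value rests on 2 UMIs, against 1.56, 0.50 and 0.84 CPM.

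Of 17 nitric oxide pathway genes tested, 11, Nos3 among them, were higher in arterial than in sinusoidal cells, 6 did not pass the test and 0 were lower, with a median log2 fold change of 1.22. Without WT 12 were higher and 1 (Prkg1) lower. Gch1, the first enzyme in the synthesis of the cofactor tetrahydrobiopterin, read 28.1, 29.9 and 34.6 CPM against 6.11, 6.28 and 6.70 CPM. Nostrin, a trafficking partner of the enzyme, was at 83.0, 77.3 and 39.7 CPM in arterial and 14.8, 14.2 and 13.8 CPM in sinusoidal cells, and Nos2, the inducible synthase, at 28.1, 9.97 and 11.2 CPM against 2.81, 2.35 and 1.77 CPM. The receiving side of the pathway was highest in stroma: Gucy1a1 and Gucy1b1, the subunits of the nitric oxide receptor guanylate cyclase, read 51.3, 73.8 and 63.6 CPM and 18.5, 17.2 and 14.6 CPM there against at most 0.69 CPM in sinusoidal and 9.16 CPM in arterial cells, where WT held 0 UMIs of either. Stromal cells were higher than sinusoidal cells in 5 of the 17 genes (with Pde5a, Prkg1 and Ddah2) and lower in 9. The share of all genes was 30.7% for each direction.

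Between libraries, none of the 8 members differed in VC from both WT and FLOX by the size rule, which asks for at least 1.5-fold against each and for more than the difference between WT and FLOX. In sinusoidal cells 1.43% of 8309 genes were higher and 0.301% lower in VC by this rule; in arterial cells 2.17% and 3.34% of 7279 genes, with all 8 members measured; and in stroma 0.916% and 0.51% of 8626 genes, with 7 members measured and Nos3 too low. No test is possible with 1 library per genotype. The closest sinusoidal members were Klf2, whose VC level was 1.31 times that of WT (1.27 to 1.35) and 1.55 times that of FLOX (1.49 to 1.60), and Klf6, at 1.48 times WT (1.43 to 1.52) and 1.39 times FLOX (1.35 to 1.44). Under a lower fold than 1.5, tried as an alternative, both passed, as 2.76% of genes did. The median log2 ratio of all genes in sinusoidal cells was -0.14 for VC over WT and -0.11 for FLOX over WT, so ratios near 1, such as those of Klf3 (0.996 and 0.969), Klf9 (0.989 and 0.959) and Nos3 (0.954 and 0.875) for VC over WT and over FLOX, carry no direction. Klf10 was lowest in VC sinusoidal cells, 1.73-fold below WT and 1.31-fold below FLOX. Klf7 was 1.36-fold lower in both VC and FLOX than in WT.

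In arterial cells it was WT that stood apart. By the same size rule applied to WT, a comparison added after the data were seen, Klf2, Klf4, Klf6 and Nos3 were lower in WT than in both FLOX and VC, against 8.86% of 7279 genes, and Klf10 was higher, against 6.24%. Klf2 was 2.45 times as high in FLOX as in WT (2.22 to 2.71) and 3.61 times in VC (3.27 to 3.99). Klf4 was 1.61 times as high in FLOX (1.43 to 1.82) and 2.49 times in VC (2.21 to 2.81), and Nos3 2.30 times in FLOX (1.55 to 3.53) and 1.66 times in VC (1.07 to 2.65). VC over FLOX, the comparison that leaves WT out, gave 1.48-fold for Klf2, 1.54-fold for Klf4 (1.42 to 1.67), 1.247-fold for Klf6 (1.12 to 1.39) and 0.72-fold for Nos3 (0.54 to 0.97). At least 1.5-fold over FLOX was reached by 5.36% of all arterial genes, among the members by Klf4 only. Without leukocyte-bearing cells Klf2 read 709, 1720 and 2645 CPM in WT, FLOX and VC, Klf4 518, 799.5 and 1346, and Nos3 43.2, 108 and 73.4, so the order of the libraries was the same. In that setting Klf4 was past the size in VC, where 2.29% of genes were, and likewise without the 5% of cells with most UMIs (2.41%) and with each cell weighted alike (2.94%).

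Other gene groups moved with the libraries beside these members. In arterial cells 5 of 13 immediate early genes (Fosb, Junb, Atf3, Zfp36 and Btg2) were higher in VC by the size rule. Of all arterial genes measured, 2.17% were higher and 3.34% lower in VC by that rule. The immediate early list summed to 4980, 5935 and 9320 CPM (WT, FLOX, VC). Heat shock genes, often raised by tissue dissociation, summed to 1262, 2468 and 3094 CPM in arterial and 1526, 1918 and 2445 CPM in sinusoidal cells, with Hspa1a at 146, 537 and 796 CPM and 144, 253 and 366 CPM. Icam1 was higher and Aqp1 and Nostrin lower in VC arterial cells by the size rule. Interferon response genes were higher in VC by the size rule in 12 of 12 cases in sinusoidal and in arterial cells and in 11 of 12 in stroma. The shares of all genes were 1.43%, 2.17% and 0.916% in these classes. Haemoglobin and erythroid genes in sinusoidal cells summed to 2151, 26.0 and 563 CPM. The part of the early response, heat shock, interferon and erythroid RNA in the library differences of Klf2, Klf4, Klf6 and Klf10 was not tested, and each cannot be told apart from genotype.

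In stroma, Klf2 was lowest in WT (FLOX 1.496-fold and VC 1.31-fold higher), and Klf9 and Klf6 had the same lowest library (Klf9 1.40-fold and 1.18-fold, Klf6 1.32-fold and 1.43-fold). Klf4 was lower in FLOX than in both others by the size rule, at 22.9 CPM against 65.4 and 39.0, against 0.278% of 8626 genes, near the 15.2 CPM of the reference cells. In these stromal sums neutrophil markers summed to 314, 2960 and 8328 CPM and haemoglobin and erythroid genes to 1666, 59.0 and 1475 CPM, the latter lowest in FLOX as Klf4 was; their part was not tested.

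Over the 9 class and library sums, the genes most like each member by Pearson's r of log2(CPM + 1), among the 3634 genes that averaged 50 CPM or more, were as follows. For Klf2 they were Tnks1bp1 (r = 0.98), the immediate early gene Ier2 (0.97) and Ensa (0.97), of which Ier2 read 133, 136 and 153 CPM in sinusoidal and 271, 359 and 532 CPM in arterial cells. For Klf4 they were Sgms1, Lbr and Adgrf5 (0.98 each), and for Nos3 Ablim1, Entpd1 (the ectonucleotidase CD39) and Ubald2 (0.99 each). For Klf3 the most alike was Notch4 (0.99), an endothelial Notch receptor at 135, 127 and 101 CPM in arterial and 3.01 to 4.03 CPM in stromal cells, and for Klf7 Gatad2a (0.997), with Mef2d (0.993) among the next. For Klf9 it was Hist1h2bc (0.99), for Klf6 Psme2 (0.96) and for Klf10 Riok1 (0.96). Among the members, Klf3 and Nos3 (r = 0.98), Klf3 and Klf7 (0.97) and Klf4 and Nos3 (0.97) were most alike, Klf2 was less like Klf4 (0.69) and Nos3 (0.70), and Klf9 and Klf4 were not (r = -0.46). The 9 sums share 3 libraries and 3 classes, so these values describe likeness and carry no p.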

How the data were processed

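Single-cell 3′ RNA libraries (1 each of WT, FLOX and VC) were read from the raw UMI count matrices deposited by the authors. Per the submitters' processing notes, Cell Ranger 2.1.1, Seurat 3.1 and mm10 were used; the matrix headers name software 3.1.0, so the version is uncertain. Whether counting used strand was not given in the sources used here. Barcodes with at least 500 genes and at most 10% mitochondrial UMIs were kept. Sinusoidal cells had Cdh5 at 1 or more, Cxcl12 under 50 and Stab2 at 2 or more UMIs; arterial cells had Stab2 at 1 or less and 2 or more of Sox17, Sema3g, Fbln2 and Gja4; stromal cells had Cxcl12 at 50 or more, Lepr plus Adipoq at 1 or more and Cdh5 at 2 or less. No doublet caller was run; leaving out the 5% of cells with most UMIs was an alternative. For each class, the UMIs of a library's cells were added up, and classes were compared with edgeR 4.0.16 (quasi-likelihood test, TMM, library block, Benjamini-Hochberg adjustment, threshold 0.05), with DESeq2 1.42.0 as an alternative. Genotypes were compared without a test, with exact 95% intervals, among genes averaging 10 CPM or more with 50 or more UMIs, by a size rule of 1.5-fold. Shares of cells were taken after thinning to 2000 UMIs, leaving out shallower cells (18, 29 and 7 sinusoidal, 0, 1 and 1 arterial, and 2, 2 and 3 stromal cells of WT, FLOX and VC). The procedure was tested on simulated data, where small fold changes were often missed and false calls among the arterial ones exceeded the nominal rate. The members and lists were chosen with earlier results of these data known; the named genes were the 8 members, from each other list up to 3 with the highest mean CPM and up to 3 with the largest called class change, and the 3 most like each member, and further list genes were picked after their values were seen. Values of some list genes are not reported here.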

Additional observations from a re-analysis of the deposited data

Results flagged for a closer look

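Klf4 moved in opposite directions in 2 classes under the same library contrast. For VC over WT its log2 ratio was 1.31 in arterial cells and -0.74 in LepR stromal cells, and for FLOX over WT it was 0.69 in arterial and -1.52 in stromal cells. The difference between the classes was not tested, since each genotype was 1 library. The stromal values rest on 195, 307 and 272 UMIs in WT, FLOX and VC, at 65.4, 22.9 and 39.0 CPM beside 40.4, 15.2 and 17.1 CPM in the Mzb1-bearing reference cells, and the arterial WT value on 58 cells.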

How the results depend on the processing

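Klf2, Nos3 and Klf9 stayed higher in arterial than in sinusoidal cells and past the threshold in 11 of 11 alternatives. Over all pairs of a member's class contrast and an alternative, 246 kept direction and side of the threshold, 11 lost the call and 6 gained it, and 1 changed sign: Klf10 in stromal against sinusoidal cells, at -0.0018 without VC and up to 0.095 without another library, against 0.05 with all 3. Genes called for arterial against sinusoidal cells numbered 3351, with 1695 under stricter classes and 1461 to 3710 when 1 library was left out (1461 without FLOX, 1937 without VC). Stromal against arterial cells gave 6496, with 4058 under stricter classes and 4422 to 6425 when 1 library was left out, and stromal against sinusoidal cells 8061, with 5876 to 8536. Without the replicate block by library, 2694, 6020 and 7133 genes were called for these 3 contrasts in that order, and Klf4 and Klf6 lost their arterial calls (edgeR adjusted p = 0.0826 and 0.279). Under the lower fold, 2 members were past the size in VC sinusoidal cells (Klf2 and Klf6, higher, where 2.76% of genes were). Klf4 was the 1 member past it in VC arterial cells without the 5% of cells with most UMIs, without leukocyte or erythroid UMIs and with each cell weighted alike. The cause was not tested. No paired analysis was possible because each genotype was 1 library, where genotypes are compared; class contrasts were paired by library. The 58 WT arterial cells and the few Nos3 UMIs limit the arterial comparisons.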

Other observations

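Cells were also divided by Cxcl9, an interferon-induced chemokine, because interferon genes were high in VC. In VC stromal cells Klf2 read 143 CPM in 232 cells with 0 Cxcl9 UMIs and 295 CPM in 234 cells with at least 1, and Klf6 318 and 444 CPM. In VC sinusoidal cells the order was the other way, with Klf2 at 333 CPM (316 to 351) in 406 cells without Cxcl9 and 287 CPM (279 to 295) in 1237 cells with it. VC arterial cells without Cxcl9 (57 cells) had Klf2 at 3017 and Klf4 at 1757 CPM, against 1662 and 594 CPM in 32 cells with it. In sinusoidal cells of WT, Klf2 read 221 CPM without and 228 CPM with Cxcl9, and in FLOX 185 and 196 CPM. These values come from 1 library per genotype and were not tested.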
